A study of Mus musculus with 6 samples.

Results

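The genes described are 35 mouse genes of fatty acid metabolism, taken by symbol from a table of 24421 genes counted in RNA from isolated pancreatic islets. They cover fatty acid uptake and binding, activation to acyl-CoA, the carnitine shuttle, mitochondrial and peroxisomal β-oxidation, fatty acid synthesis, desaturation and elongation, lipid droplets, and the fuel-switch kinase Pdk4. All 35 symbols were found, and all 35 were among the 13736 genes expressed highly enough to be tested. Islets are the hormone-secreting cell clusters of the pancreas, in which insulin-producing β cells are the most numerous cell type in the mouse. The 3 control libraries and the 3 libraries labelled as lacking Dhps in β cells came from mice on the C57BL/6J background. Dhps encodes deoxyhypusine synthase, which uses the polyamine spermidine to modify the translation factor eIF5A. The knockout label names a loxP-flanked Dhps allele with MIP1-CreERT, a Cre recombinase activated by tamoxifen and driven by the mouse insulin promoter, so that recombination is directed at β cells while the other cells of the islet keep the gene. The labels do not say whether the controls carried Cre or what the sample prefix HF means, and give no age, diet or tamoxifen schedule. Nor do they tie each replicate to its own animal, and p-values therefore measure the spread between these libraries and nothing wider.

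Fatty acids enter cells by diffusion and through the scavenger receptor CD36, are carried in the cytosol by fatty acid-binding proteins, and are joined to coenzyme A by acyl-CoA synthetases. Carnitine palmitoyltransferases pass long-chain acyl groups into mitochondria, where repeated rounds of dehydrogenation, hydration, dehydrogenation and thiolysis release acetyl-CoA. In β cells, glucose raises malonyl-CoA, the product of acetyl-CoA carboxylase, which inhibits carnitine palmitoyltransferase and turns long-chain acyl-CoA toward lipid signals that amplify insulin secretion. The enzyme encoded by Hadh, short-chain 3-hydroxyacyl-CoA dehydrogenase, has a further role in β cells, where it binds and restrains glutamate dehydrogenase, and inherited loss of HADH in people causes hyperinsulinism.

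Gene counts summed to between 21027737 and 23249895 per library, and between 15954 and 16370 genes were detected. Counts on the fatty acid genes ran from 18 for Acacb in control 1 to 16026 for Hadh in control 3. The targeted gene, Dhps, did not separate the labels: it measured 12.03, 13.4 and 12.3 CPM (counts per 1e6 of the TMM-scaled library size) in the controls, against 11.7, 12.7 and 11.4 CPM in the knockout-labelled islets, with a log2 fold change of −0.07 ± 0.12 (SE, 95% interval −0.34 to 0.20, adjusted p = 0.742, edgeR quasi-likelihood test). Its count sums all 9 exons, overlaps exons of Wdr83, and includes every islet cell type. Directions below therefore refer to libraries labelled knockout. In bulk islet RNA, fewer cells of a type and less RNA per cell cannot be told apart.

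Most of the 35 genes were not called different between the labels. By edgeR's quasi-likelihood test, adjusted after Benjamini and Hochberg over all genes tested, 1 gene fell, Hadh, and 1 gene rose, Fabp4, while 33 were not called. The called share was 5.71% of the 35 genes against 6.76% of all genes tested (4.14% higher and 2.63% lower), a share close to that background. Without adjustment, 9 of the 35 had a p under 0.05 (25.7%, against 26.5% of all genes tested), and in 12 the libraries of one label lay wholly above or below those of the other (34.3%, against 32.1%). Fitted log2 fold changes were positive for 19 genes and negative for 16, with a median of 0.02, beside a median of 0.01 over all genes tested. Precision was good enough to bound most of them: the 95% interval of the log2 fold change lay within 0.5 of zero for 16 of the 35 genes and within 1 of zero for 30. The 5 genes with wider intervals were Cd36, Fabp4, Fabp5, Acacb and Scd1.

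**Figure D1:**
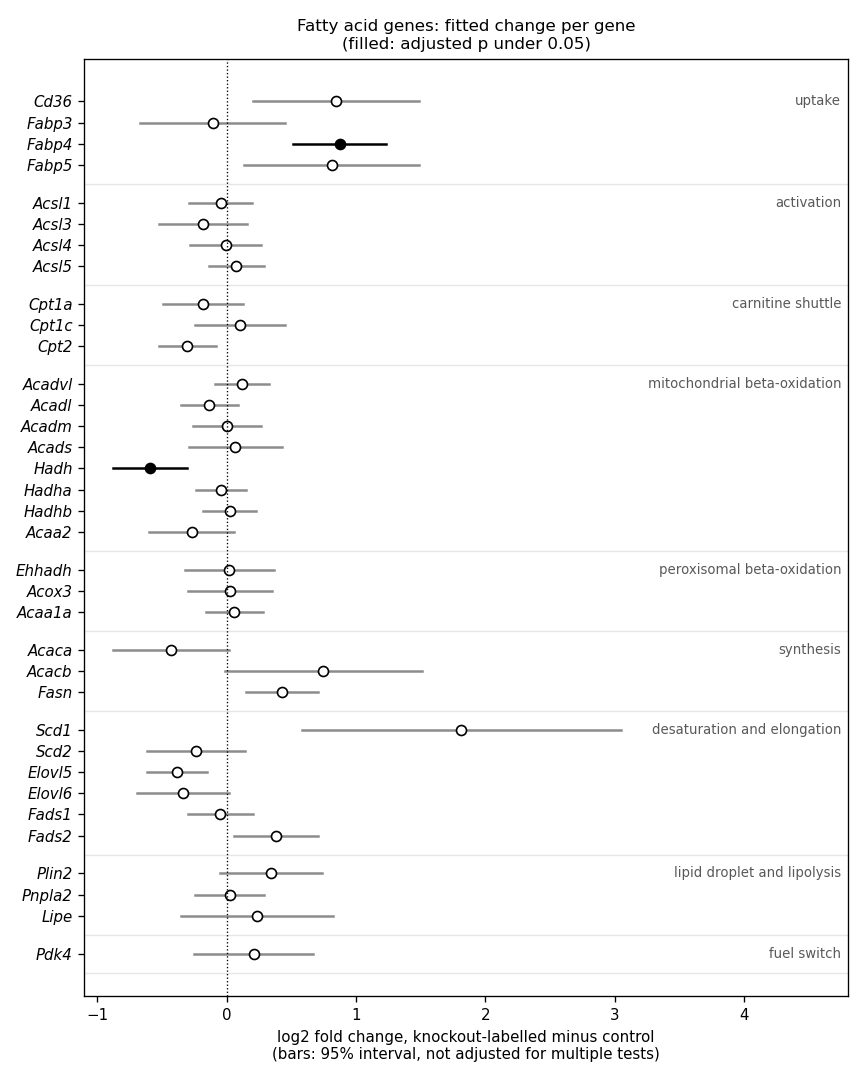
Fitted log2 fold change of each of the 35 genes, knockout-labelled minus control, grouped by role, with its 95% interval (x axis, log2 units); filled points passed an adjusted p of 0.05 in edgeR. Hadh at −0.59 and Fabp4 at 0.87 are the filled points, and most oxidation genes sit close to zero.

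Levels between genes were compared as CPM per kb of exon, which allows for gene length. Hadh stood far above the others, at 364 ± 8.36 CPM per kb in the controls (SD, n = 3), rank 57 of the 13736 genes tested. Elovl5, the elongase of polyunsaturated fatty acids, followed at 54.4 CPM per kb, then Hadhb at 43.7 and Acadvl at 32.5. The lowest levels per kb were those of Acacb (0.123), Scd1 (0.368), the hormone-sensitive lipase gene Lipe (0.810) and Acaca (0.933). Acaca and Acacb encode the acetyl-CoA carboxylases, the committed step of synthesis, and both were thus among the 4 least abundant of the 35 per kb. In the knockout-labelled libraries Hadh remained the most abundant of the 35 per kb, at 241 ± 28.1 CPM per kb, and its rank among all genes tested was 118.

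**Figure D2:**
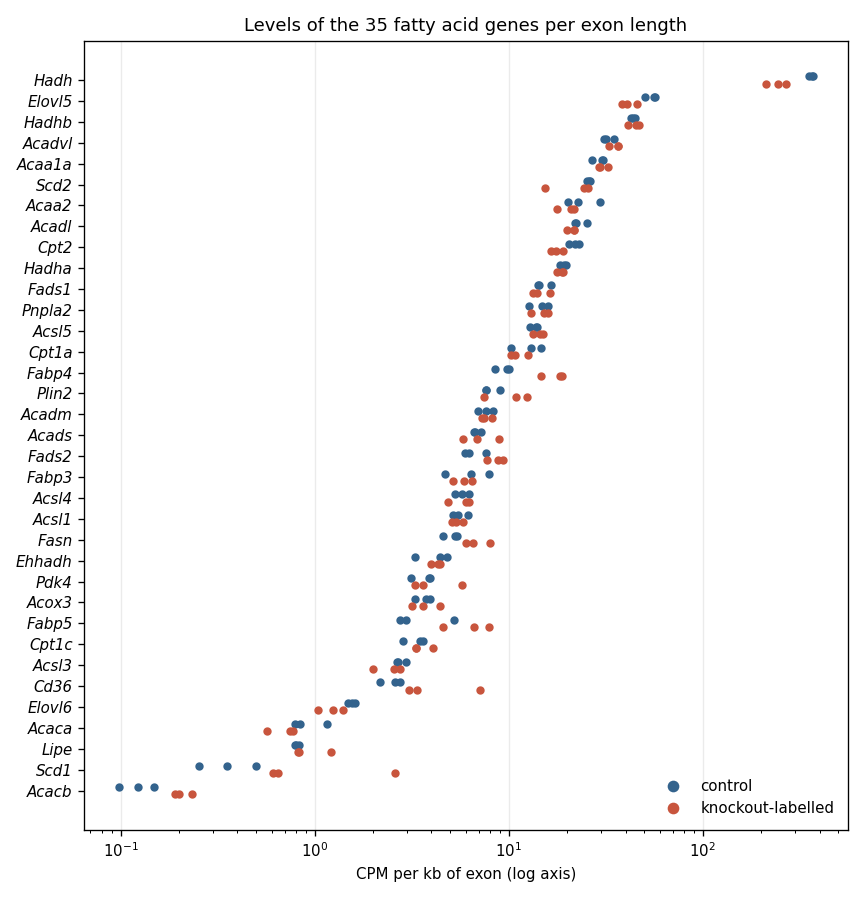
Level of each of the 35 genes in every library, in CPM per kb of exon on a log axis, sorted by the control mean; blue points are the 3 controls and red points the 3 knockout-labelled libraries. Hadh lies apart on the right in both groups, with its 3 red points below its 3 blue points.

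Hadh, on chromosome 3 from 131233420 to 131272101 on the minus strand (mm10, 8 exons, 1788 bp of exon), encodes the enzyme of the third step of mitochondrial β-oxidation for short- and medium-chain acyl-CoA. It measured 657, 662 and 634 CPM in the controls, against 435, 479 and 379 CPM in the knockout-labelled islets. The 3 controls lay close together, and every knockout-labelled library was below every control. Hadh fell to 0.663 of the control level, a log2 fold change of −0.59 ± 0.13 (SE, 95% interval −0.88 to −0.31, adjusted p = 0.0306, edgeR quasi-likelihood test). The fold change kept its size when single libraries were left out, between −0.69 and −0.51, but the call did not: the adjusted p was 0.0506 without control 1, 0.0926 without control 2, and 0.0588 without control 3. Leaving out a knockout-labelled library gave 0.0960 for replicate 1, 0.0359 for replicate 2 and 0.0601 for replicate 3.

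The other 7 mitochondrial β-oxidation genes were not called. Hadha and Hadhb encode the α and β subunits of the trifunctional protein, which carries out the last 3 steps of the cycle for long-chain acyl-CoA and so includes a long-chain counterpart of the Hadh activity. Hadha measured 70.9, 75.3 and 73.5 CPM in the controls, against 73.1, 72.0 and 67.75 CPM in the knockout-labelled islets (log2 fold change −0.05, 95% interval −0.24 to 0.15). Hadhb measured 88.7, 90.7 and 92.6 CPM in the controls, against 93.4, 85.1 and 97.8 CPM in the knockout-labelled islets (0.02, −0.18 to 0.23). Within each library the ratio of Hadh to Hadha per kb does not depend on library scaling: it was 19.9, 18.9 and 18.5 in the controls, against 12.8, 14.3 and 12.0025 in the knockout-labelled islets, with no overlap (exact two-sided permutation p = 0.1, the smallest that 3 against 3 libraries allow, and 0.15 adjusted over the 12 gene ratios computed). Hadh RNA was therefore lower relative to Hadha RNA as well as relative to the whole library.

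Upstream sequences are shown for Hadh, whose RNA fell, and for the Hadha and Hadhb pair, whose RNA was not called. Hadha and Hadhb lie head to head on chromosome 5, with 272 bp between the ends of their deposited models. The 250 bases before the Hadh start site are at chr3:131272102-131272351, minus strand, and the 85 bases between annotated exons of the Hadha and Hadhb pair are at chr5:30155163-30155247, printed on the plus strand, which is that of Hadhb. Both come from the RefSeq promoter table (GRCm38.p6), and capitals mark a CCAAT box (CCAAT) or a GC box (GGGCGG, or CCGCCC on the other strand).
Hadh: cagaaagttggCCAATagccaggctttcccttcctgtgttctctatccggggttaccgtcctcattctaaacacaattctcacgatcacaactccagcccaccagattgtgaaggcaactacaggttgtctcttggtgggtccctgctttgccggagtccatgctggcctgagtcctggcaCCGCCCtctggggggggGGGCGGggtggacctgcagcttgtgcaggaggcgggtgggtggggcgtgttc
Hadha-Hadhb: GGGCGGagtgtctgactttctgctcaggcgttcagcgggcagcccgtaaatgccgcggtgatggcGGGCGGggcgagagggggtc
The Hadh stretch has a CCAAT box from 239 to 235 bases before the start site and GC boxes from 69 to 64 and from 52 to 47 bases before it. The stretch between Hadha and Hadhb has GC boxes from 90 to 85 and from 25 to 20 bases before the Hadhb start site and no CCAAT. These motifs are common: on both strands, 33.8% of the 32851 upstream windows of 250 bases in the RefSeq table hold CCAAT and 32.7% hold GGGCGG. Of the 29 fatty acid genes with an entry (31 windows, as Acsl1 and Lipe have more than one), 14 held CCAAT and 18 held GGGCGG in at least 1 window. The other 7 motifs were also searched on both strands. None of the 29 held the perfect direct repeat bound by PPAR and RXR (0.0335% of all windows), TCAAGGTCA (an estrogen-related receptor site, 0.387%), TGACGTCA (the cAMP response element, 1.55%) or the NRF1 palindrome (0.782%). TCACNCCAC, a sterol response element (1.05% of all windows), was in Ehhadh and in one of the Acsl1 windows, the E-box CACGTG (6.02%) in Elovl5 and Lipe, and TATAAA (12.4%) in Acacb. No matches overlapped in the printed stretches, and a match is a description of these letters, not of a factor bound there. Fabp4, Fabp5, Acaa2, Scd1, Scd2 and Fads1 were not matched. For Cd36, Acadl and Ehhadh, the bases just after the RefSeq start site were not found in a GENCODE transcript of the gene. The Cd36 window, chr5:17835897-17836146, lies inside the deposited gene model, which ends at 17888959. These windows are included in the counts above.

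The acyl-CoA dehydrogenases, which start each round of β-oxidation on chains of different length, were not called. Acadvl, for very long chains, measured 76.6, 69.0 and 68.0 CPM in the controls, against 79.7, 72.2 and 80.1 CPM in the knockout-labelled islets. Acadl, Acadm and Acads, for long, medium and short chains, had log2 fold changes of −0.13, −0.00038 and 0.07. Their groups overlapped except for Acadl, whose knockout-labelled libraries, at 38.8 to 42.3 CPM, lay just below the controls at 42.5 to 49.2 CPM. The 95% intervals of all 4 lay within 0.5 of zero. Acaa2, a thiolase of mitochondrial β-oxidation, measured 34.3, 44.4 and 30.4 CPM in the controls, against 32.5, 26.7 and 31.3 CPM in the knockout-labelled islets. The groups overlapped (log2 fold change −0.27, 95% interval −0.60 to 0.06).

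The peroxisomal genes, whose enzymes shorten very long and branched chains, showed no call. Ehhadh (the bifunctional hydratase and dehydrogenase), Acox3 (an oxidase of branched chains) and the thiolase gene Acaa1a had log2 fold changes between 0.02 and 0.06, and none of their 95% intervals reached 0.5 in either direction. None of these 3 genes had an unadjusted p under 0.05, and DESeq2 and limma-voom called 0 of them too.

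The carnitine shuttle was measured through Cpt1a, its rate-limiting outer-membrane enzyme, Cpt1c, a neuronal and endoplasmic reticulum relative with little catalytic activity, and Cpt2, which rebuilds acyl-CoA inside the mitochondrion. None was called by edgeR, DESeq2 or limma-voom, and 1 of the 3, Cpt2, had an unadjusted p under 0.05. Cpt2 measured 47.9, 54.3 and 51.7 CPM in the controls, against 38.8, 41.2 and 44.6 CPM in the knockout-labelled islets, with no overlap (log2 fold change −0.31 ± 0.10, SE, 95% interval −0.53 to −0.09, adjusted p = 0.0866). Cpt1a measured 44.3, 63.5 and 55.7 CPM in the controls, against 46.4, 44.1 and 53.9 CPM in the knockout-labelled islets, and the groups overlapped (−0.18, −0.49 to 0.13). Per kb, Cpt1a was 2.95, 5.15 and 3.58 times as abundant as Cpt1c in the controls, against 3.23, 3.09 and 3.06 times in the knockout-labelled islets.

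Some β cell genes fell alongside Hadh. Of 12 β cell markers, 5 fell, 0 rose and 7 were not called: the glucose transporter gene Slc2a2, the zinc transporter gene Slc30a8, the incretin receptor gene Glp1r, the transcription factor gene Nkx6-1 and the urocortin gene Ucn3 fell, while Ins1 and Ins2 were not called. The median log2 fold change of the 12 markers was −0.59. Slc2a2 had the largest fall of the 12, at −1.15, and Ins2 was at −0.08. Relative to Slc2a2, Hadh per kb stood at 2.02, 1.71 and 1.70 in the controls, against 2.399, 2.30 and 3.89 in the knockout-labelled islets, a log2 difference of 0.62. Relative to Ins2 the log2 difference of Hadh was −0.53, so the sign depended on the β cell gene used. Neither ratio overlapped between the groups (exact two-sided permutation p = 0.1 for each, the smallest possible, 0.15 adjusted over 12 ratios). The summed level of the 12 markers, which is nearly all insulin, ran from 367944 to 496795 CPM in the controls and from 394300 to 449122 CPM in the knockout-labelled libraries. Acinar markers summed to 1130 to 12460 CPM in the controls and 29556 to 33811 CPM in the knockout-labelled libraries, with 1 of 19 tested called higher. The part of cell composition in the Hadh difference was not tested.

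Of the uptake genes, Fabp4 rose. Fabp4 encodes the fatty acid-binding protein known from adipocytes, macrophages and capillary endothelium. It measured 6.43, 6.25 and 5.46 CPM in the controls, against 12.01, 9.40 and 11.8 CPM in the knockout-labelled islets, and every knockout-labelled library lay above every control (log2 fold change 0.87 ± 0.16, SE, 95% interval 0.52 to 1.23, adjusted p = 0.0210, edgeR quasi-likelihood test). These values rest on 138 to 273 counts per library. The fold change stayed between 0.79 and 0.97 when single libraries were left out, while the adjusted p was 0.0762 without control 2, 0.0710 without control 3, and 0.0769 and 0.0530 when knockout-labelled replicates 1 and 3 were omitted. It was 0.0281 without control 1 and 0.0217 without replicate 2.

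Cd36 and Fabp5, the other uptake genes with an unadjusted p under 0.05, were not called. Cd36, the membrane receptor for long-chain fatty acids, measured 10.2, 8.54 and 10.8 CPM in the controls, against 13.3, 11.98 and 27.98 CPM in the knockout-labelled islets, all above the controls. Replicate 3 alone held more than the other knockout-labelled libraries combined, and the log2 fold change of 0.85 (95% interval 0.21 to 1.49, adjusted p = 0.0974) was 0.36 without it. Fabp5, the epidermal-type binding protein that macrophages and endothelium also express, measured 4.998, 2.83 and 2.61 CPM in the controls, against 4.36, 7.57 and 6.35 CPM in the knockout-labelled islets. Control 1 overlapped the knockout-labelled range, and the log2 fold change of 0.81 (adjusted p = 0.123) became 1.16 without control 1, with an adjusted p of 0.0466. Fabp3, the muscle-type binding protein, had overlapping groups at 3.01 to 5.04 CPM in the controls and 3.30 to 4.14 CPM in the knockout-labelled libraries.

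Some markers of other cell types known to express Fabp4 also rose, but higher marker levels were not particular to those types. Summed levels of the acinar, duct, stellate and fibroblast, delta and PP, and Schwann cell lists were also wholly higher in the knockout-labelled libraries. Their median log2 fold changes were 1.98, 1.28, 1.08, 0.66 and 0.56, against 0.47 for endothelial and 0.90 for macrophage markers. The sums of the alpha cell, β cell, lymphocyte and adipocyte lists overlapped. Of 13 endothelial markers, 5 rose, 0 fell and 8 were not called, and their summed level was 409 to 530 CPM in the controls and 579 to 682 CPM in the knockout-labelled libraries. Of 14 macrophage markers, 6 rose, 0 fell and 8 were not called, with sums of 171 to 176 CPM and 282 to 355 CPM. Relative to the endothelial adhesion gene Pecam1, Fabp4 per kb stood at 1.27, 1.01 and 0.971 in the controls, against 1.26, 0.953 and 1.34 in the knockout-labelled islets, so that ratio overlapped between the groups. Pecam1 was among the endothelial markers that rose, with a log2 fold change of 0.74, whereas the list's median was 0.47, and Kdr and Flt1 had values of −0.02 and −0.01. Relative to the macrophage gene Cd68, Fabp4 per kb stood at 3.92, 2.89 and 2.98 in the controls, against 1.75, 1.62 and 1.22 in the knockout-labelled islets, with no overlap in that case. Cd68 had the largest log2 fold change of the 14 macrophage markers, 1.98. The list's median was 0.90, and Csf1r and C1qa had values of 0.34 and 0.40, so that ratio depended on the macrophage gene used. Most defining adipocyte markers were at or near zero: Adipoq, Lep, Retn and Adrb3 had no count in any of the 6 libraries, Plin1 had 5 counts in control 1 and none elsewhere, and Cidec had 1 to 6 counts per library. Of the 10 adipocyte markers, 2 were tested and neither was called: Lpl, which other cell types also express, had a log2 fold change of −0.39 (adjusted p = 0.126, edgeR) and Tmem45b one of 1.78 (adjusted p = 0.168, edgeR), at under 2 CPM in every library. The part of endothelial and macrophage RNA in the Fabp4 difference was not tested.

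**Figure D3:**
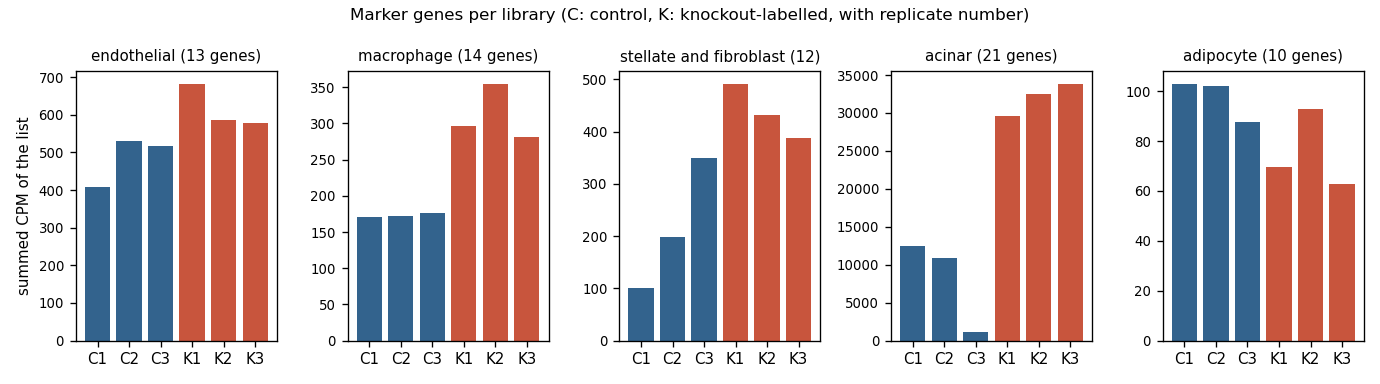
Summed CPM of 5 marker lists in each library (C1 to C3 controls, K1 to K3 knockout-labelled, y axes from 0). Endothelial, macrophage, stellate and acinar sums are higher in all 3 knockout-labelled libraries than in any control, and the adipocyte sum, nearly all from Lpl, is not.

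The acyl-CoA synthetases, which activate fatty acids, were not called. Acsl4, a synthetase that prefers arachidonate, measured 33.0, 30.2 and 27.9 CPM in the controls, against 31.9, 33.0 and 25.6 CPM in the knockout-labelled islets (log2 fold change −0.0074, 95% interval −0.28 to 0.26). Acsl1, Acsl3 and Acsl5 had log2 fold changes of −0.04, −0.18 and 0.07. None of the 4 had an unadjusted p under 0.05, DESeq2 and limma-voom called 0 of them, and all 4 intervals lay within 1 of zero. The exons of Acsl3 overlap those of Utp14b, which had a mean of 70.2 counts.

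None of the 3 synthesis genes was called by edgeR, and their fitted differences had both signs. Fasn, the fatty acid synthase, measured 53.6, 45.8 and 52.6 CPM in the controls, against 64.9, 59.7 and 80.0 CPM in the knockout-labelled islets, all above the controls (log2 fold change 0.43 ± 0.12, SE, 95% interval 0.15 to 0.71, adjusted p = 0.0648 in edgeR and 0.0290 in DESeq2). Acaca, the cytosolic acetyl-CoA carboxylase that supplies Fasn with malonyl-CoA, measured 7.59, 7.17 and 10.5 CPM in the controls, against 5.15, 6.72 and 6.96 CPM in the knockout-labelled islets, all below the controls (−0.43, −0.88 to 0.02). Acacb, the carboxylase at the mitochondrial outer membrane, rested on few counts, 18, 25 and 32 in controls 1 to 3 and 45, 36 and 32 in knockout-labelled replicates 1 to 3 (log2 fold change 0.75, 95% interval −0.01 to 1.51).

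Ratios within a library show the unequal levels of these genes without any library scaling. Per kb, Fasn was 6.42, 5.81 and 4.54 times as abundant as Acaca in the controls, against 11.47, 8.08 and 10.4 times in the knockout-labelled islets. Acaca was 8.56, 6.46 and 7.81 times as abundant as Acacb in the controls, against 2.44, 3.73 and 4.02 times in the knockout-labelled islets. Neither ratio overlapped between the groups, which follows from the single genes, since Fasn and Acacb lay wholly higher and Acaca wholly lower in the knockout-labelled libraries.

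Of the stearoyl-CoA desaturase genes, Scd2 was 9.89 to 102 times as abundant as Scd1 per kb across the 6 libraries, and Scd1, its neighbour 87.6 kb away on chromosome 19, was low. Both encode enzymes that place a double bond in saturated chains to make monounsaturated fatty acids. Scd2 measured 138, 142 and 142 CPM in the controls, against 134, 140 and 83.6 CPM in the knockout-labelled islets. Replicate 3 was the low one, and the log2 fold change of −0.24 (95% interval −0.62 to 0.14, adjusted p = 0.408) was −0.04 without it. Scd1 measured 2.41, 1.71 and 1.23 CPM in the controls, against 2.95, 12.6 and 3.15 CPM in the knockout-labelled islets, all above the controls. Replicate 2 held most of the Scd1 counts, 268 against 67 and 62 in replicates 1 and 3, and the log2 fold change of 1.81 (0.58 to 3.04, adjusted p = 0.0740) was 0.77 without it. DESeq2 called Scd1 (adjusted p = 0.00426), with that library included. Knockout-labelled replicate 2 also had the highest sum of 9 lymphocyte markers, 70.0 CPM, against 7.35 and 17.1 CPM in replicates 1 and 3. That sum was 9.85 to 17.3 CPM in the controls. The part of lymphocyte RNA in the Scd1 difference was not tested.

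The elongases Elovl5 and Elovl6 and the desaturases Fads1 and Fads2 make long polyunsaturated chains, except Elovl6, which lengthens palmitate. Elovl5 measured 141, 157 and 156 CPM in the controls, against 114, 127 and 106 CPM in the knockout-labelled islets, with no overlap (log2 fold change −0.39 ± 0.10, SE, 95% interval −0.62 to −0.15). Its adjusted p was 0.0533 in edgeR, 0.0484 in limma-voom and 0.00833 in DESeq2, so its call rests on the tool. Elovl6 was lower in all 3 knockout-labelled libraries, at 6.20 to 8.36 CPM, than in the controls, at 8.83 to 9.63 CPM, and was not called (adjusted p = 0.207). Fads2, the first desaturase of the polyunsaturated pathway, measured 11.48, 9.001 and 9.41 CPM in the controls, against 14.04, 13.25 and 11.6 CPM in the knockout-labelled islets (0.38, 0.06 to 0.71, adjusted p = 0.129). Fads1, which acts after it, had overlapping groups and a log2 fold change of −0.05.

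**Figure D4:**
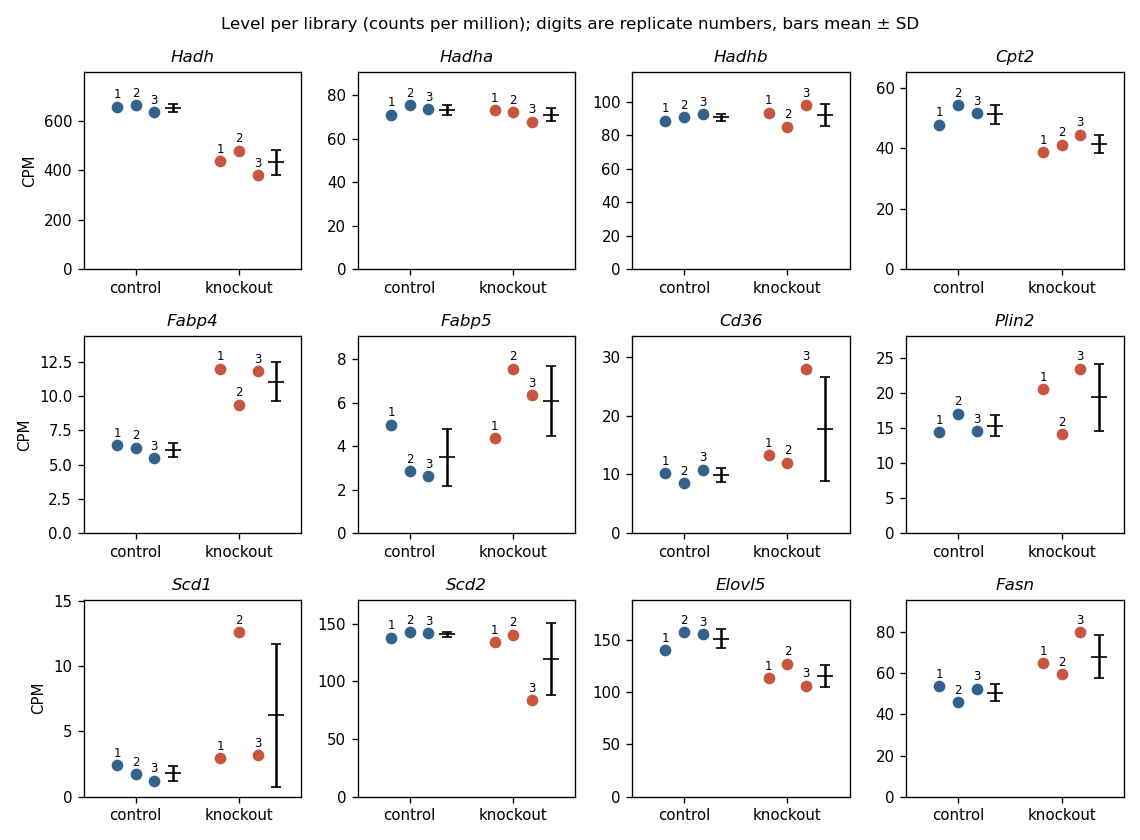
CPM in each library for 12 of the genes (y axes from 0; digits are replicate numbers; black bars are mean ± SD, n = 3). Hadh, Cpt2 and Elovl5 lie lower and Fabp4, Fasn, Cd36 and Scd1 higher in all 3 knockout-labelled libraries than in any control. Scd1, Scd2 and Cd36 each show a single library away from its group.

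Lipid droplet genes and Pdk4 were not called by edgeR, DESeq2 or limma-voom, and none had an unadjusted p under 0.05. Plin2, the main droplet coat protein of β cells, measured 14.3, 17.0 and 14.5 CPM in the controls, against 20.5, 14.1 and 23.4 CPM in the knockout-labelled islets, where replicate 2 lay below every control (log2 fold change 0.34, 95% interval −0.05 to 0.73). Pnpla2, the adipose triglyceride lipase that starts droplet breakdown, measured 34.6, 43.2 and 40.2 CPM in the controls, against 43.2, 35.3 and 41.5 CPM in the knockout-labelled islets. Lipe, the next lipase, measured 2.59, 2.63 and 2.73 CPM in the controls, against 2.68, 2.73 and 3.96 CPM in the knockout-labelled islets. Pdk4 encodes a kinase that blocks pyruvate dehydrogenase when fatty acids are burned. It measured 13.7, 13.4 and 10.9 CPM in the controls, against 12.5, 11.4 and 19.96 CPM in the knockout-labelled islets, with replicate 3 highest, and its log2 fold change of 0.21 was −0.08 without that library.

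Knockout-labelled replicate 3 was often at an edge. Of the 35 genes, it held the highest of the 6 values for 11 and the lowest for 9, whereas each other library held the highest for 2 to 9 and the lowest for 4 to 7. Without that library edgeR called 0 of the 35 genes and 2.46% of all genes tested, and 8 of the 35 had an unadjusted p under 0.05. The count was also 0 without control 2, control 3 or knockout-labelled replicate 1, with 7 to 8 at an unadjusted p under 0.05, where 0.708%, 1.54% and 0.459% of all genes were called.

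Other genes of the same pathways were examined for comparison. Of 141 listed, all were in the table and 119 were tested, with a median log2 fold change of 0.04. By edgeR, 2 rose, 1 fell and 116 were not called (2.52% called, against 6.76% of all genes tested). Without adjustment, 29 of the 119 had a p under 0.05 in edgeR, against 26.5% of all genes tested. Prkaa1, a catalytic subunit of AMP-activated protein kinase, which phosphorylates and inhibits acetyl-CoA carboxylase, fell from 88.5 ± 12.5 to 58.7 ± 7.09 CPM (SD, n = 3 each, log2 fold change −0.59 ± 0.13, SE, adjusted p = 0.0325, edgeR). Acss1, a mitochondrial acetyl-CoA synthetase, rose from 0.808 ± 0.131 to 2.71 ± 0.468 CPM (1.74 ± 0.34, adjusted p = 0.0237, edgeR), on 16 to 70 counts per library. Plin3, a droplet coat protein found in most tissues, rose from 9.12 ± 1.57 to 15.1 ± 3.06 CPM (0.73 ± 0.18, adjusted p = 0.0460, edgeR, 0.0709 with replicate number as a block and 0.0522 in limma-voom).

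These fold changes kept their sign when single libraries were left out, but the calls were lost without any 1 of several libraries. Log2 fold changes ran from −0.70 to −0.52 for Prkaa1, 1.61 to 1.87 for Acss1 and 0.59 to 0.87 for Plin3. The adjusted p of Prkaa1 was 0.106 without control 2, 0.0960 without control 3, and 0.101 and 0.0775 when knockout-labelled replicates 1 and 3 were omitted. For Acss1 it was 0.0881 without control 2, 0.0710 without control 3 and 0.0814 without replicate 1. For Plin3 it was 0.0795, 0.0833 and 0.143 without controls 1, 2 and 3, and 0.141 and 0.107 without replicates 1 and 3.

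The 36 tested genes of the further oxidation list include the carnitine carrier and the electron transfer flavoproteins. They held no edgeR call, with 9 at an unadjusted p under 0.05, 3 called by DESeq2 and 0 by limma-voom. Among all genes tested, 26.5% had an unadjusted p under 0.05 in edgeR. DESeq2 called 9.12% of all genes and limma-voom 6.49%. The 20 tested genes of further synthesis, desaturation and elongation also held no edgeR call, with 7 at an unadjusted p under 0.05, 1 called by DESeq2 and 0 by limma-voom. That gene, Acly, the ATP citrate lyase that makes cytosolic acetyl-CoA, was chosen here after its values were seen. Acly measured 1689, 1748 and 2123 CPM in the controls, against 1137, 1458 and 1399 CPM in the knockout-labelled islets, with no overlap (log2 fold change −0.48 ± 0.16, SE, adjusted p = 0.0971 in edgeR and 0.00367 in DESeq2). Mlxipl, the glucose-responsive factor ChREBP that activates lipogenic genes, was also chosen after its values were seen. It measured 68.2, 117 and 116 CPM in the controls, against 63.5, 61.7 and 38.1 CPM in the knockout-labelled islets, with control 1 close to replicate 1 (−0.88 ± 0.23, adjusted p = 0.0505 in edgeR, 0.0217 without control 1 and 0.000881 in DESeq2).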

How the data were processed

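RNA from isolated mouse islets was sequenced in 3 control and 3 knockout-labelled libraries. The deposited table holds raw read counts per gene, with exon coordinates and exon length in bp as the authors' annotation columns. Per the submitters' processing notes, STAR 2.4.2a, featureCounts, Subread 1.5.0 and edgeR were used with mm10. For the annotation, strand setting and multi-mapping reads, nothing is given in the sources used here.

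Counts were tested with edgeR 4.0.16 in R 4.3.3: filterByExpr, TMM factors and the quasi-likelihood test of knockout-labelled against control, with Benjamini-Hochberg adjustment over all 13736 genes tested. Adjusted p under 0.05 was a call. Standard errors came from the fold change and its F statistic. CPM used TMM-scaled library sizes. Ratios were tested by exact permutation. Exon overlaps used GenomicRanges 1.54.1. Alternatives used DESeq2 1.42.0 and limma 3.58.1. The scripts were tested on simulated data with 200 of 13736 genes changed. They recovered 24% of 1.5-fold, 74% of 2-fold, 92% of 4-fold and 96% of 8-fold changes, and 18 of 161 calls were false. Most 1.5-fold changes were thus missed there, and the lack of a call does not show that a gene is unchanged. The false calls there were a larger share than the adjusted p threshold of 0.05, so calls close to it are uncertain too. Replicates differed by at least 10.81 times counting noise (chi-square per degree of freedom), so none was the same library deposited again. This does not show that they came from separate animals.

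Members and gene lists were chosen with earlier results of these data known. Every called member and the defining members of each role are given by library. Hadhb, Acaa2, Acacb, Elovl5, Acly and Mlxipl were added after their values were seen.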

Additional observations from a re-analysis of the deposited data

How the results depend on the processing

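Over 14 alternative settings, 443 of 490 member values kept their direction and side of the threshold, 9 lost the call, 8 gained it and 30 changed sign. The number of members called higher, 1, became 2 with no filter on low counts, 4 with DESeq2 (Cd36, Fabp4, Fasn and Scd1) and 0 to 2 when single libraries were left out. The number called lower, 1, became 2 with no filter, with DESeq2 and with limma-voom (Elovl5 joined Hadh each time) and 0 to 1 when single libraries were left out. Hadh and Fabp4 were called under all 8 settings that kept every library. Over all genes, calls ran from 64 of 13935 (0.459%) without knockout-labelled replicate 1 to 1643 of 18016 (9.12%) with DESeq2. The main fit called 929 of 13736 (6.76%). The share of all genes called was 7.84% with no filter, 6.49% with limma-voom and 6.51% with upper-quartile factors. It was 7.18% without acinar and hormone genes, and 0.459% to 6.91% with single libraries left out. Other lipid genes called higher, 2, became 4 with upper-quartile factors, 5 with no filter, 6 with DESeq2, 1 with limma-voom, 4 without acinar and hormone genes, and 0 to 4 with single libraries left out. Those called lower, 1, became 4 with no filter, 5 with DESeq2, 2 without acinar and hormone genes, and 0 to 4 with single libraries left out. The cause was not tested.

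Signs changed for 13 members, none of them called. Acsl4 was 0.020 with upper-quartile factors and 0.0016 with a minimum of 1 CPM in 3 libraries. Acadm was 0.027, 0.0087, 0.00044, 0.0014 and 0.00064 with upper-quartile factors, the CPM minimum, limma-voom, the replicate block and without acinar and hormone genes. With single libraries left out, log2 fold changes ran from −0.30 to 0.076 for Fabp3, −0.11 to 0.014 for Acsl1, −0.088 to 0.094 for Acsl4, −0.0070 to 0.16 for Cpt1c, −0.065 to 0.050 for Acadm, −0.11 to 0.19 for Acads, −0.024 to 0.065 for Hadhb and −0.12 to 0.12 for Ehhadh. They ran from −0.11 to 0.13 for Acox3, −0.0057 to 0.079 for Acaa1a, −0.14 to 0.014 for Fads1, −0.063 to 0.094 for Pnpla2 and −0.082 to 0.35 for Pdk4.

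With the replicate number as a block, 1 member was called higher and 1 lower, and 826 of all genes. Same-numbered libraries correlated at −0.0475, 0.0113 and 0.0416 in their deviations from the group means, and not every library correlated best with its own number. These correlations showed no pairing by number. With 3 libraries per group, they cannot decide whether same-numbered libraries were handled together. Depth limits the members with few counts, such as Acacb (18 to 45 per library) and Lipe (56 to 78).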
